A study of Rattus norvegicus with 12 samples.

Results

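The genes of the constitutive proteasome were examined in rat lung. They were taken as every probe set whose symbol in the array annotation starts with Psma, Psmb, Psmc, Psmd, Psme, Psmf or Psmg, apart from Psmb8, Psmb9 and Psmb10, which form the inducible immunoproteasome. This rule gave 57 probe sets of 43 genes, out of 31042 probe sets on the array. A further 6 probe sets carried several symbols and were not used, so Psmb6 and Psme3 have no value here. The rule uses no measured value. It also took Psmc3ip and Psme3ip1, which encode interacting proteins and are not subunits.

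The lungs came from male wild-type Sprague Dawley rats of 250 to 350 g, with 3 arrays in each of 4 groups. Sham animals were the controls. BD animals underwent brain death, produced with a Fogarty catheter balloon inflated outside the dura. SEW animals received SEW-2871, an agonist of the sphingosine 1-phosphate receptor S1P1, intravenously at 0.1 mg/kg, and BD/SEW animals received that dose 15 min after brain death. Whether SEW animals were operated on is not stated, and neither is whether the replicates were separate animals. The p-values therefore reflect only how much these samples differ from each other, which may be technical. The comparisons ask what brain death and the agonist, alone or together, do to lung expression.

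The proteasome degrades proteins that carry ubiquitin chains. Its 20S core is a stack of alpha and beta rings, with the proteolytic sites inside the beta rings. The 19S cap binds ubiquitinated substrates, removes the ubiquitin and unfolds the protein with a ring of ATPases. Dedicated chaperones assemble both particles, and other activators and an inhibitor bind the ends of the core. In cells exposed to interferon, Psmb8, Psmb9 and Psmb10 replace the constitutive catalytic beta subunits Psmb5, Psmb6 and Psmb7.

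The proteasome genes were well expressed on this array, and 54 of their 57 probe sets had a mean above 5.62, the lower quartile of all probe set means on the log2 scale. The 3 others were secondary probe sets of Psmc4, Psmd11 and Psmd14. All values are log2 units, and a gene with several probe sets is described by its brightest probe set unless another is named. The 17 measured markers of alveolar epithelium and endothelium were all detected, the lowest value being 10.13 for Aqp5 in SEW replicate 2. Several arrays stood apart. Means of 17 cardiac muscle genes were 9.13 to 10.14 in sham, 11.13 in BD replicate 2 and 5.86 to 7.94 in the other 8 arrays. Means of 11 adipocyte genes were 8.77 to 9.79 in sham, 9.33 in BD replicate 2 and 6.50 to 7.41 elsewhere. The mean of 17 heat shock and chaperone genes was 12.62 in SEW replicate 2 and 10.69 to 10.97 in the other 11 arrays. Sham replicate 3 received a weight of 0.228 when arrays were weighted by quality, the lowest of the 12. In a whole-lung sample, fewer cells of a type and less RNA per cell cannot be told apart.

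Between groups the proteasome genes moved little. The difference was under 1.5-fold for all 57 probe sets in every comparison except SEW against sham, where it was under that size for 56 and Psmd10 was beyond it. The median span of the 4 group means was 0.26 over the 43 genes, and it was 0.263 over all probe sets. The highest group mean lay in SEW for 28 genes, in BD/SEW for 9, in sham for 6 and in BD for 0. The lowest lay in sham for 22 genes, in BD for 12, in SEW for 6 and in BD/SEW for 3.

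**Figure D1:**
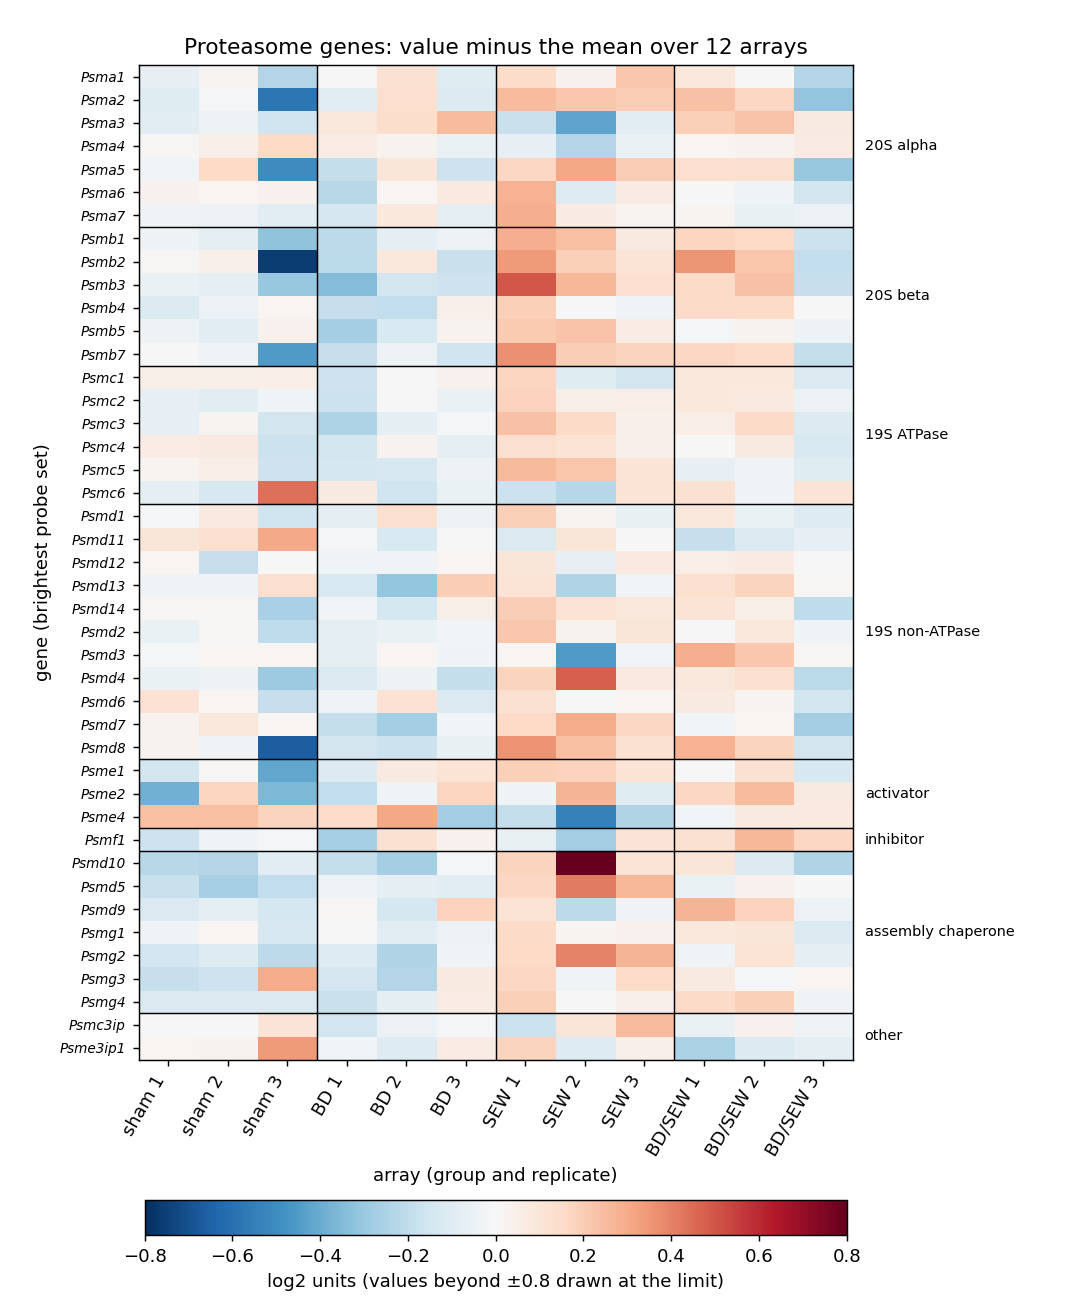
Log2 value of the brightest probe set of each of 43 proteasome genes in each of 12 arrays, minus that probe set's mean over the arrays, with genes ordered by role and arrays by group. The SEW columns are mostly red in the 20S beta rows, sham replicate 3 holds the darkest blue cells, and Psmd10 in SEW replicate 2 is drawn at the upper limit.

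After brain death without the agonist, no proteasome probe set passed limma's test over all 12 arrays at an adjusted p under 0.05, against 0.432% of all probe sets. At an unadjusted p under 0.05 there were 3 of 57 probe sets, 5.26%, against 10.4% of all. The median difference was 0.01, and that over all probe sets was 0.0167. The 3 arrays of BD lay entirely on 1 side of the 3 sham arrays for 7 of the 57 probe sets, 12.3%, against 15.2% of all probe sets. The 3 arrays that stood apart most were sham replicate 3, BD replicate 2 and SEW replicate 2, and without them 32 of the 57 did not overlap, 56.1%, against 49.1% of all probe sets, since only 2 arrays were left in each group. Of the 32, 22 were lower in BD, 38.6% of the 57 against 20.1% of all probe sets, and 10 were higher, 17.5% against 29.0%. Cardiac means were 6.22 and 7.12 in the BD arrays left and 10.14 and 9.61 in the sham arrays left. Adipocyte means were 6.50 and 6.69 in those BD arrays and 9.79 and 9.03 in those sham arrays. The part of cardiac and adipocyte RNA was not tested. The median difference without the 3 arrays was -0.04, against 0.03 over all probe sets. It was also below 0 without sham replicate 3, at -0.03, and without BD replicate 2, at -0.02, so its sign depends on single arrays. The 95% interval of the difference lay within 1.5-fold in either direction for 56 of the 57.

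The SEW group against sham gave the most proteasome probe sets without overlap of the 5 comparisons, and most of these were higher in SEW. A called change was found for 1 probe set, the chaperone gene Psmd5, which rose; 2.71% of all probe sets were called in this comparison. At an unadjusted p under 0.05 there were 15 of 57, 26.3%, against 21.9% of all probe sets. The median difference was 0.11, against 0.0067 over all probe sets, and 40 probe sets were above 0 and 17 below. The SEW and sham arrays did not overlap for 28 of 57 probe sets, 49.1%, against 24.7% of all probe sets. Of these, 25 were higher in SEW, 43.9% of the 57 against 14.0% of all probe sets, and 3 were lower, 5.26% against 10.7%. Without the 3 arrays that stood apart most, 40 of the 57 did not overlap, 70.2%. Of these, 33 were higher in SEW, 57.9% against 30.1% of all probe sets, and 7 were lower, 12.3% against 19.6%. With only 2 arrays left in each group, 49.8% of all probe sets then did not overlap. The means of cardiac and adipocyte genes given above were higher in sham than in SEW, and means of 4 airway genes were 12.28 to 12.42 in sham and 9.43 to 10.86 in SEW. Genes of the lung parenchyma lay the other way: all 7 alveolar type 2 genes, all 4 type 1 genes and all 6 endothelial genes were above 0 in SEW against sham. Their medians were 0.28, 0.29 and 0.18, 4 of 7, 3 of 4 and 3 of 6 did not overlap, and 1 endothelial gene was called. Cardiac means were 9.13 to 10.14 in sham and 5.86 to 7.33 in SEW, without overlap. A fit with this mean as a covariate therefore cannot separate it from the group difference. With the covariate the median difference was 0.10. In that fit 0 of the 57 were called in limma, against 37 of all 31042 probe sets, which were 840 without the covariate. The part of cardiac RNA was not separated from the group difference, and that of adipocyte, airway, alveolar and endothelial RNA was not tested.

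With the agonist added to brain death, no proteasome probe set differed between BD/SEW and BD at an adjusted p under 0.05 in limma, against 0.0129% of all probe sets. The count at an unadjusted p under 0.05 was 1 of 57, 1.75%, against 4.95% of all. The median difference was 0.06 and 43 of the 57 were above 0, while the median over all probe sets was -0.01. Only 1 probe set of the 57 did not overlap, against 11.4% of all probe sets. BD/SEW replicate 3 stood below the mean of the other 2 arrays of its group for 49 of 57 probe sets, by a median of 0.15. Without that array, 21 of the 57 did not overlap, 36.8% against 27.5% of all probe sets. Of these, 20 were higher in BD/SEW, 35.1% against 13.7%, and 1 was lower, 1.75% against 13.8%. The median difference was then 0.12. Without BD/SEW replicate 2 the median was 0.03.

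Brain death in the presence of the agonist, BD/SEW against SEW, gave 1 called proteasome probe set, that of Psma3, which rose, against 7.08% of all probe sets. At an unadjusted p under 0.05 there were 9 of 57, 15.8%, against 20.8% of all. The median difference was -0.07, against -0.0033 over all probe sets, and 34 probe sets were below 0 and 23 above. It was -0.025 without BD/SEW replicate 3, with 31 below 0 and 26 above, and -0.03 without SEW replicate 1. The arrays did not overlap for 15 of 57, 26.3%, against 29.1% of all probe sets. Of these, 6 were higher in BD/SEW, 10.5% of the 57 against 12.5% of all probe sets, and 9 were lower, 15.8% against 16.6%. Without BD/SEW replicate 3 there were 13 higher, 22.8% against 16.4% of all probe sets, and 10 lower, 17.5% against 21.6%. This comparison shares its SEW arrays with SEW against sham, so the values of a gene in the 2 comparisons are not independent.

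For BD/SEW against sham, 0 of 57 probe sets were called in limma, against 1.63% of all probe sets, and 3 had an unadjusted p under 0.05, 5.26%, against 15.2%. The median difference was 0.10, against 0.0033 over all probe sets, and 10 of 57 did not overlap, 17.5%, against 22.3%. Cardiac means were 6.04 to 7.94 in BD/SEW and 9.13 to 10.14 in sham, without overlap. Airway means were 9.7 to 10.3 and 12.3 to 12.4. With the cardiac covariate the median over the 57 was 0.064, and 17 of all probe sets were called, against 505 without it. That fit cannot separate the covariate from the group difference, and the part of cardiac and airway RNA was not tested. Single arrays moved the median and the counts. Without BD/SEW replicate 3, 27 of the 57 did not overlap, 47.4% against 36% of all probe sets. Of these, 23 were higher, 40.4% against 18.3%, and 4 were lower, 7.02% against 17.8%. Without sham replicate 3, 24 did not overlap, 42.1% against 42.2%, and the median difference was 0.055. The interaction, which is the difference made by brain death with the agonist less that without it, was called for 0 of 57 in limma, against 0.451% of all probe sets. It had an unadjusted p under 0.05 for 3 of 57, 5.26%, against 10.9%, and a median of -0.06, against -0.03 over all probe sets. Its 95% interval lay within 1.5-fold for 35 of the 57.

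**Figure D2:**
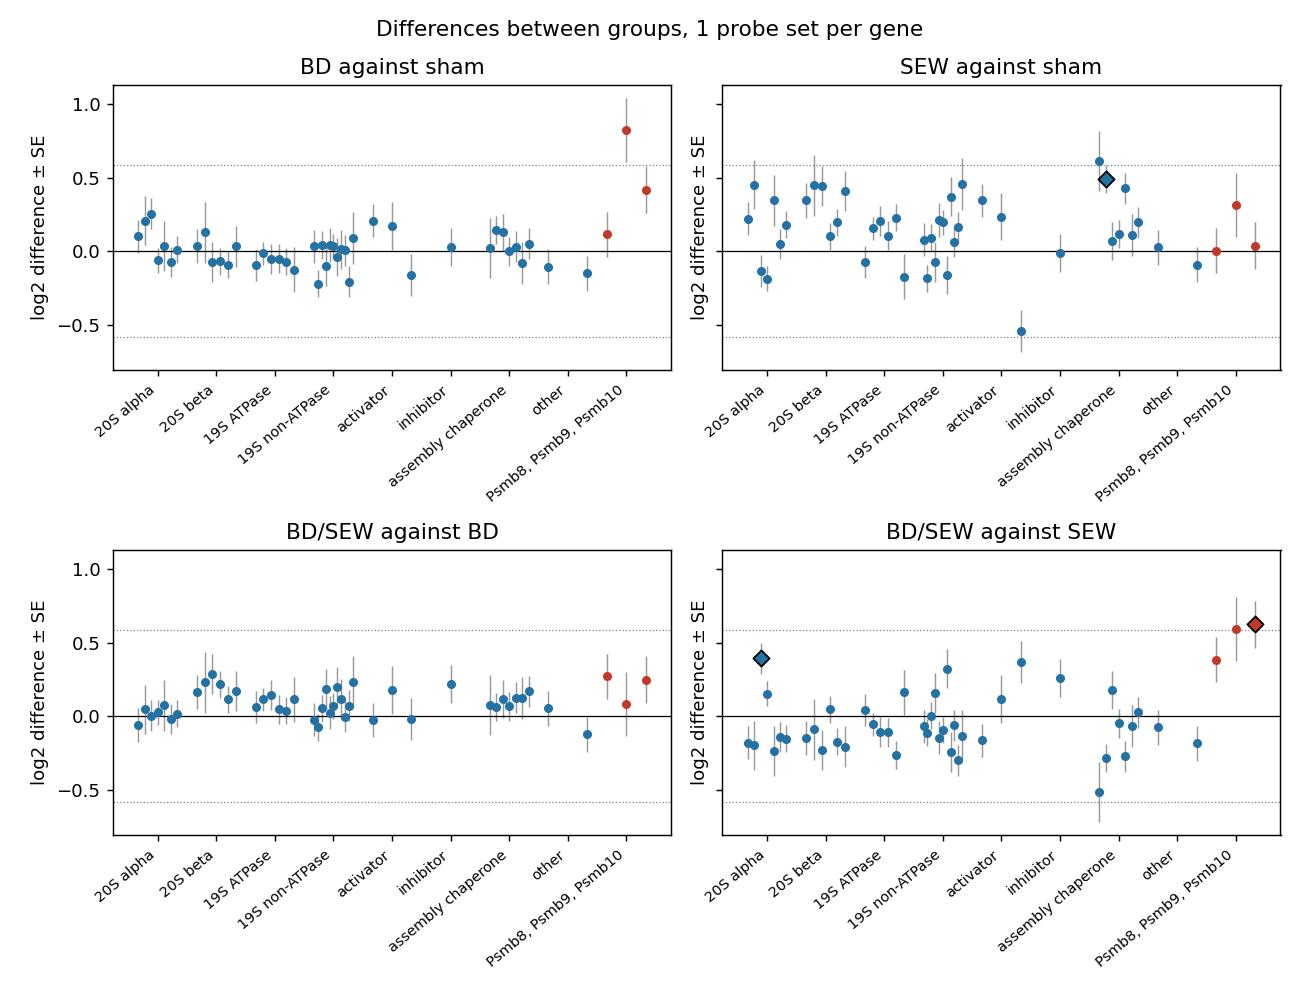
Log2 difference between groups with its standard error for the 43 genes (blue, 1 probe set per gene, ordered by role and then name) and for Psmb8, Psmb9 and Psmb10 (red) in 4 comparisons of 3 arrays against 3. Diamonds mark genes called at an adjusted p under 0.05 and dotted lines mark 1.5-fold; the called genes are Psmd5 in SEW against sham, and Psma3 and Psmb9 in BD/SEW against SEW.

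The alpha subunits form the outer rings of the core, through which substrates enter. Among the 7 alpha genes, Psma3 was called in BD/SEW against SEW, as were 7.08% of all probe sets, and none was called in the other comparisons. Its values were 10.13, 10.18 and 10.06 in sham, 10.31, 10.36 and 10.47 in BD, 10.04, 9.80 and 10.13 in SEW, and 10.41, 10.45 and 10.29 in BD/SEW. Every array of a brain-dead group was above every array of the sham and SEW groups. The difference was 0.39 with an SE of 0.11 in BD/SEW against SEW, a 1.31-fold rise (limma, adjusted p = 0.0482). It was 0.26 in BD against sham (adjusted p = 0.422 in limma) and 0.26 in BD/SEW against sham (adjusted p = 0.274). The call in BD/SEW against SEW is at the edge of the threshold. It was lost without any array other than sham replicate 3, and the adjusted p ran from 0.0192 to 0.172 over the alternatives. Without the 3 arrays that stood apart the difference was 0.30. With the heat shock mean as a covariate it was 0.29 with an adjusted p of 0.137 in limma. A related gene, Psma3l, shares another, unused probe set with Psma3. The probe set described here is annotated to Psma3 alone, and whether it also detects Psma3l was not examined.

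None of the 6 other alpha genes was called, while 0.0129% to 7.08% of all probe sets were called in the comparisons. Psma2, the alpha gene with the widest span, was 11.32, 11.40 and 10.84 in sham and 11.67, 11.63 and 11.62 in SEW. It was 11.33, 11.55 and 11.31 in BD and 11.65, 11.58 and 11.10 in BD/SEW. The SEW arrays were all above the sham arrays, and sham replicate 3 was the lowest of the 12. The difference of 0.45 with an SE of 0.17 did not pass (limma, adjusted p = 0.147), and without sham replicate 3 it was 0.28. In SEW against sham, 4 of the 7 alpha genes did not overlap with higher values in SEW and 1, Psma4, with lower values. The shares over all probe sets were 14.0% and 10.7%. The median difference over the 7 was 0.18. Psma4 was 10.99, 11.03 and 11.14 in sham and 10.92, 10.75 and 10.93 in SEW, a difference of -0.19 that did not pass in limma (adjusted p = 0.232). In BD/SEW it was 11.00, 11.01 and 11.05, above all SEW arrays as for Psma3, and the difference of 0.15 did not pass in limma (adjusted p = 0.351).

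The beta subunits line the proteolytic chamber. All 6 beta genes measured had higher means in SEW than in sham, with a median difference of 0.38. The arrays did not overlap for 5 of the 6, against 24.7% of all probe sets, but 0 passed the test, against 2.71% of all. Psmb3, a structural subunit with the widest span of the group, was 10.81, 10.79 and 10.56 in sham, 10.52, 10.72 and 10.70 in BD, 11.36, 11.13 and 11.00 in SEW and 11.02, 11.10 and 10.68 in BD/SEW. Its SEW arrays were above all sham and BD arrays. The difference from sham was 0.44 with an SE of 0.14 (limma, adjusted p = 0.0989). Psmb7, a catalytic subunit, was 11.34, 11.31 and 10.89 in sham and 11.71, 11.54 and 11.52 in SEW. The groups did not overlap, and the difference was 0.41 with an SE of 0.14 (limma, adjusted p = 0.118). Without sham replicate 3 it was 0.27. Psmb5, the subunit that carries the chymotrypsin-like site and binds proteasome inhibitor drugs, was 11.65, 11.60 and 11.73 in sham and 11.90, 11.92 and 11.75 in SEW. The difference of 0.20 had an SE of 0.09 (limma, adjusted p = 0.237), and the closest arrays were 0.02 apart.

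The remaining beta genes had the same sign in SEW. Psmb1 was 11.77, 11.73 and 11.49 in sham and 12.10, 12.05 and 11.88 in SEW, a difference of 0.35 (limma, adjusted p = 0.119). Psmb2 was 11.34, 11.37 and 10.57 in sham and 11.67, 11.52 and 11.44 in SEW, a difference of 0.45 (limma, adjusted p = 0.231). Sham replicate 3 lay 0.79 below the mean of the other sham arrays for Psmb2 and without that array the difference was 0.19. Psmb4 was 12.34, 12.40 and 12.46 in sham and 12.64, 12.45 and 12.42 in SEW, and the groups overlapped. Psmb4 had the smallest p of the members in BD/SEW against BD, at 12.26, 12.25 and 12.49 in BD and 12.60, 12.60 and 12.45 in BD/SEW. Those groups overlapped too, and the difference of 0.22 did not pass (limma, adjusted p = 0.992). In that comparison all 6 beta genes were above 0, with a median of 0.19, against -0.01 over all probe sets. The arrays did not overlap for 0 of the 6, against 11.4% of all probe sets. In BD/SEW against SEW, 5 of the 6 were below 0, with a median of -0.16.

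**Figure D3:**
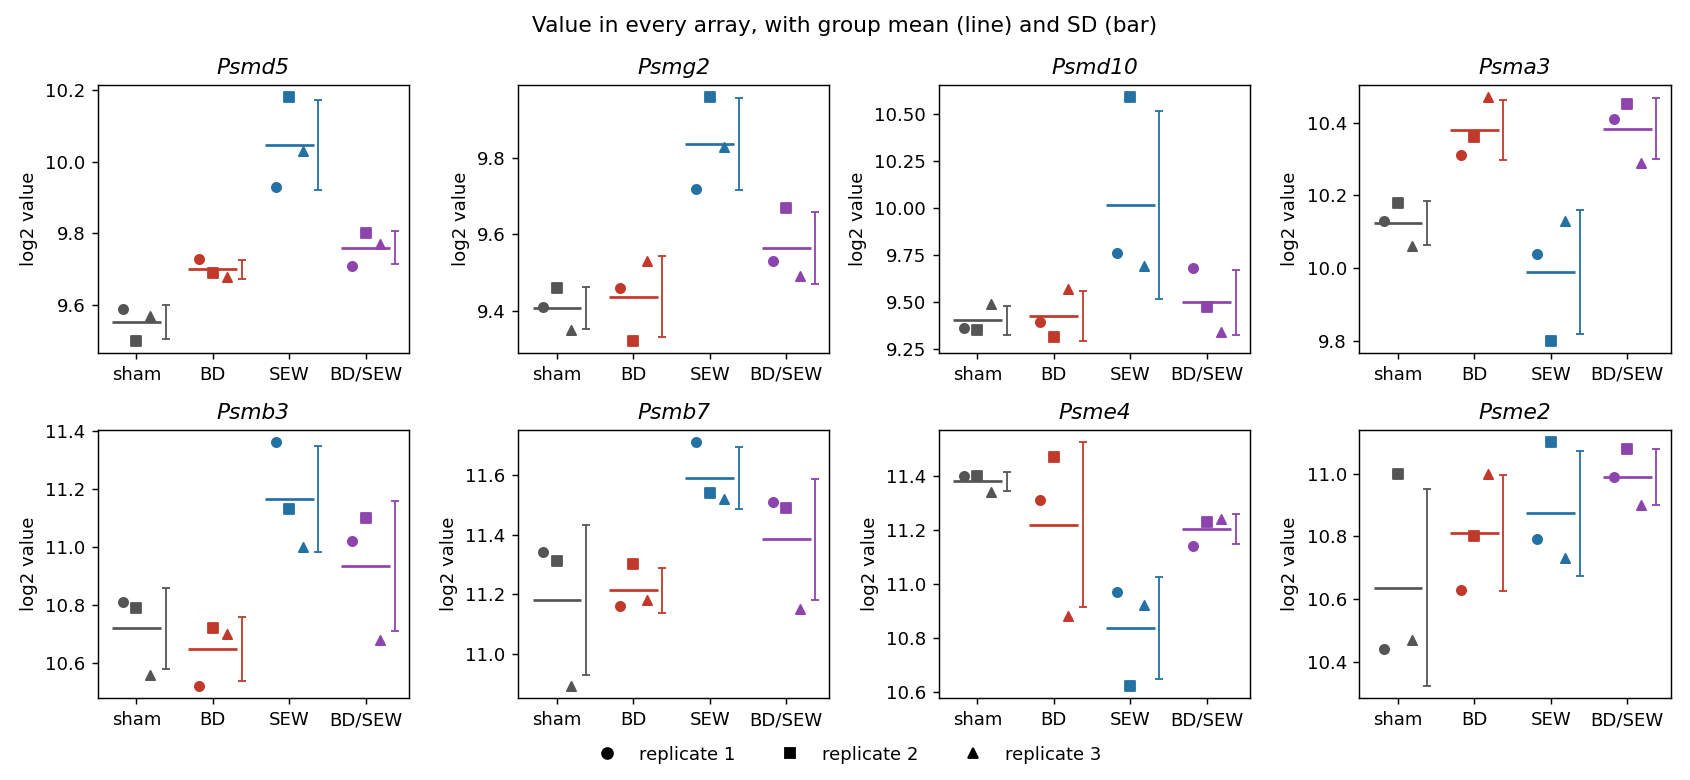
Log2 value in each of the 12 arrays for 8 proteasome genes, with the group mean as a line, the SD as a bar (n = 3) and replicates 1, 2 and 3 as circles, squares and triangles. The scales differ between panels. SEW arrays lie above all sham arrays for Psmd5, Psmg2, Psmd10, Psmb3 and Psmb7 and below them for Psme4, and both groups with brain death lie above sham and SEW for Psma3.

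The 6 ATPases of the 19S cap unfold the substrate and feed it into the core. None was called in any comparison, while 0.0129% to 7.08% of all probe sets were called. Psmc5, with the widest span of the 6, was 10.45, 10.48 and 10.26 in sham, 10.29, 10.30 and 10.39 in BD, 10.69, 10.65 and 10.54 in SEW and 10.36, 10.40 and 10.33 in BD/SEW. Its SEW arrays were above those of every other group. The difference was 0.23 from sham (limma, adjusted p = 0.179), and BD/SEW against SEW gave -0.26 (adjusted p = 0.122 in limma). In BD against sham all 6 ATPase genes were below 0, by a median of 0.06, with 1 of the 6 not overlapping, against 15.2% of all probe sets. Psmc6 was named through a dimmer probe set with a small p in BD/SEW against SEW. That probe set was 9.73, 8.92 and 9.51 in SEW and 10.06, 9.93 and 9.78 in BD/SEW, a difference of 0.54 with an SE of 0.19 (limma, adjusted p = 0.126). The brightest probe set of Psmc6 gave 0.16 and the other -0.06 in that comparison, so the probe sets gave different values. Without SEW replicate 2 the dimmer one gave 0.30.

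The 11 non-ATPase genes encode the scaffold of the cap, its ubiquitin receptors and its deubiquitinase. Of the 11, 0 were called in any comparison, against 0.0129% to 7.08% of all probe sets. Psmd8, a lid subunit, had the widest span, at 9.88, 9.82 and 9.19 in sham, 9.70, 9.68 and 9.79 in BD, 10.21, 10.09 and 9.97 in SEW and 10.13, 10.03 and 9.70 in BD/SEW. The SEW arrays were above the sham arrays, of which replicate 3 was the lowest. The difference was 0.46 with an SE of 0.18 (limma, adjusted p = 0.163), and without sham replicate 3 it was 0.24. Psmd11, a lid subunit, had the smallest p of the members in BD against sham and in BD/SEW against sham. It was 11.51, 11.54 and 11.72 in sham, 11.40, 11.29 and 11.42 in BD, 11.30, 11.51 and 11.41 in SEW and 11.23, 11.30 and 11.35 in BD/SEW. Both groups with brain death were below sham without overlap, by -0.22 in BD (limma, adjusted p = 0.418) and by -0.30 in BD/SEW (adjusted p = 0.141 in limma). These comparisons share the sham arrays. Of its 2 other probe sets, the brighter gave -0.16 in BD against sham and the dimmer -0.04.

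Psmd7, the partner of the deubiquitinase in the lid, was 10.63, 10.69 and 10.62 in sham, 10.41, 10.33 and 10.58 in BD, 10.76, 10.90 and 10.77 in SEW and 10.58, 10.62 and 10.33 in BD/SEW. The BD arrays lay below sham and the SEW arrays above it, in both cases without overlap. The differences were -0.21 in BD against sham (limma, adjusted p = 0.536) and -0.30 in BD/SEW against SEW (limma, adjusted p = 0.122). A second probe set of Psmd7, at a mean of 10.05, gave -0.013 and -0.13 in these comparisons, and its BD and sham arrays overlapped. Psmd14, the deubiquitinase itself, had 3 probe sets, and for each of them the SEW arrays were above the sham arrays, by 0.21, 0.45 and 0.21. All 3 were lowest in sham replicate 3, and without that array the brightest gave 0.12. The dimmest had a mean of 5.48, below the lower quartile of all probe set means. Psmd3, another lid subunit, was 9.74, 9.27 and 9.70 in SEW and 10.01, 9.94 and 9.73 in BD/SEW, and the groups overlapped. Its difference was 0.20 in BD/SEW against BD (limma, adjusted p = 0.992), and its interaction was 0.36 (limma, adjusted p = 0.510), or 0.21 without SEW replicate 2. Psmd14 was chosen after its values had been seen, as were Psma4, Psmb1, Psmb2, Psmb5 and Psmb7.

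Among the activators, Psme1 and Psme2 encode the subunits of an interferon-inducible ring, and Psme4 encodes a large activator found mostly in the nucleus. Psme1 was 11.92, 12.08 and 11.65 in sham, 11.96, 12.14 and 12.18 in BD, 12.26, 12.25 and 12.18 in SEW and 12.07, 12.19 and 11.94 in BD/SEW. The SEW arrays were above the sham arrays, while those of BD overlapped with sham. The difference was 0.35 in SEW (limma, adjusted p = 0.113) and 0.21 in BD (limma, adjusted p = 0.564). Without sham replicate 3 these were 0.23 and 0.093. A much dimmer probe set of Psme1 gave -0.31 in SEW against sham, the opposite sign. Psme2 was 10.44, 11.00 and 10.47 in sham, 10.63, 10.80 and 11.00 in BD, 10.79, 11.10 and 10.73 in SEW and 10.99, 11.08 and 10.90 in BD/SEW. All groups overlapped with sham, and the difference in BD/SEW was 0.35 with an SE of 0.16 (limma, adjusted p = 0.333).

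Psme4 was the member furthest below sham in SEW. Its values were 11.40, 11.40 and 11.34 in sham, 11.31, 11.47 and 10.88 in BD, 10.97, 10.62 and 10.92 in SEW and 11.14, 11.23 and 11.24 in BD/SEW. The SEW arrays lay below all sham and BD/SEW arrays. The difference from sham was -0.54 with an SE of 0.14, and it did not pass (limma, adjusted p = 0.0662). It passed without BD replicate 2 or without BD replicate 3, and the adjusted p ran from 0.0317 to 0.492 over the alternatives. The 2 other probe sets of Psme4 gave 0.06 and -0.23 in SEW against sham. In the brighter of these, sham replicate 3 was 9.39 against 10.69 and 10.70 in the other sham arrays. Psmf1, an inhibitor that binds the core, was 9.66, 9.44 and 9.82 in SEW and 9.84, 9.98 and 9.88 in BD/SEW. The arrays did not overlap, and the closest were 0.02 apart. The difference was 0.26 (limma, adjusted p = 0.292), and it was 0.22 in BD/SEW against BD (limma, adjusted p = 0.992), or 0.105 without BD replicate 1.

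**Figure D4:**
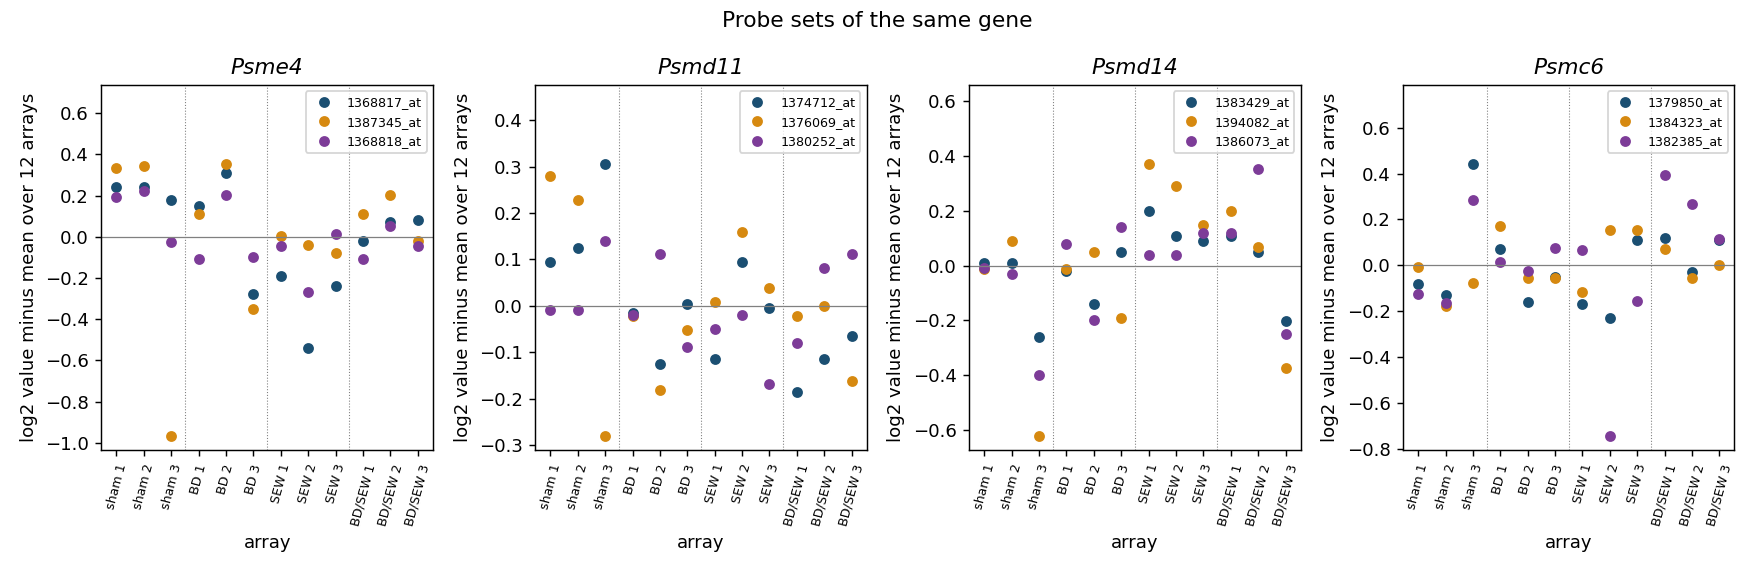
Log2 value of each probe set in each of 12 arrays, minus that probe set's mean over the arrays, for 4 genes with 3 probe sets each; dotted lines separate the groups. In sham replicate 3 the probe sets of Psme4 and Psmd11 lie on opposite sides of their means, and those of Psmd14 are all low.

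The assembly chaperones build the particles and are not part of the finished proteasome. Psmd5, Psmd9 and Psmd10 assist the base of the 19S cap, and Psmg1 to Psmg4 assist the alpha ring. Their 7 genes were all above 0 in SEW against sham, with a median of 0.20, and 5 of the 7 did not overlap, against 24.7% of all probe sets. Psmd5 was 9.59, 9.50 and 9.57 in sham, 9.73, 9.69 and 9.68 in BD, 9.93, 10.18 and 10.03 in SEW and 9.71, 9.80 and 9.77 in BD/SEW. The SEW arrays were above those of every other group, and the arrays of BD and BD/SEW were above those of sham. Psmd5 rose by 0.49 with an SE of 0.09 in SEW against sham, which is 1.41-fold (limma, adjusted p = 0.0242). The call was kept in 8 of the 12 fits that left out 1 array each. It was lost without sham replicate 1, sham replicate 2, SEW replicate 2 or SEW replicate 3, with adjusted p up to 0.0666 in limma. Without the 3 arrays that stood apart the difference was 0.44 with an adjusted p of 0.0504 in limma. With the cardiac mean as a covariate it was 0.50 with an adjusted p of 0.268 in limma. That fit cannot separate the covariate from the group difference. BD/SEW against SEW gave -0.29 (limma, adjusted p = 0.0989), and the interaction was -0.43 (limma, adjusted p = 0.251).

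Psmg2, which pairs with Psmg1, was the next of the chaperones by p in SEW against sham. It was 9.41, 9.46 and 9.35 in sham, 9.46, 9.32 and 9.53 in BD, 9.72, 9.96 and 9.83 in SEW and 9.53, 9.67 and 9.49 in BD/SEW. The SEW arrays were above those of the other groups. The difference was 0.43 with an SE of 0.11 (limma, adjusted p = 0.0552), and the interaction was -0.30 (limma, adjusted p = 0.490). Psmd10, also known as gankyrin, had the widest span of all members. It was 9.36, 9.35 and 9.49 in sham, 9.39, 9.31 and 9.57 in BD, 9.76, 10.59 and 9.69 in SEW and 9.68, 9.47 and 9.34 in BD/SEW. SEW replicate 2 was 0.87 above the mean of the other SEW arrays, and it is the array in which the heat shock and chaperone genes were high. The difference of 0.61 from sham had an SE of 0.20 (limma, adjusted p = 0.118), and without SEW replicate 2 it was 0.33. The remaining SEW arrays still lay above all sham and BD arrays.

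Psmg4 was 9.65 in all 3 sham arrays, 9.59, 9.69 and 9.83 in BD, 9.96, 9.77 and 9.81 in SEW and 9.92, 9.96 and 9.74 in BD/SEW. The groups of BD/SEW and BD overlapped, and the difference was 0.17 (limma, adjusted p = 0.992), or 0.11 without BD replicate 1. A dim probe set of Psmd9 was 6.52, 6.52 and 6.25 in sham and 6.77, 6.73 and 6.61 in BD, without overlap. Its difference of 0.27 did not pass (limma, adjusted p = 0.432), and the brighter probe set of Psmd9 gave 0.13. Psme3ip1, an interacting protein, was 10.02, 10.03 and 10.34 in sham and 9.75, 9.89 and 9.93 in BD/SEW, also without overlap, with a difference of -0.27 (limma, adjusted p = 0.305) that was -0.17 without sham replicate 3.

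The promoters of both called genes, and of Psmb2, are shown because shared motifs are known in this family. The first is the antioxidant response element core TGACNNNGC, to which Nfe2l1 and Nfe2l2 bind, and the other is the CCAAT box. They come from RefSeq, assembly GRCr8, and run from 250 bases before to 50 bases after the start, on the strand of the gene. Psmd5 is at chr3:38548441-38548740 on the minus strand, Psma3 at chr6:95219499-95219798 on the plus strand and Psmb2 at chr5:144254808-144255107 on the plus strand. Capitals mark matches to either motif on either strand, and in Psmb2 the matches overlap.
Psmd5: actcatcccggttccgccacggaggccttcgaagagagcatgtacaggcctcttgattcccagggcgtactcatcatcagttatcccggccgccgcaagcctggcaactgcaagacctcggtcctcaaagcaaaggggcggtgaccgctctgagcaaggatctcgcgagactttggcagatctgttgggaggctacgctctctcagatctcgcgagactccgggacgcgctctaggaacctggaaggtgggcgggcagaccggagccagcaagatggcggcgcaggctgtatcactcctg
Psma3: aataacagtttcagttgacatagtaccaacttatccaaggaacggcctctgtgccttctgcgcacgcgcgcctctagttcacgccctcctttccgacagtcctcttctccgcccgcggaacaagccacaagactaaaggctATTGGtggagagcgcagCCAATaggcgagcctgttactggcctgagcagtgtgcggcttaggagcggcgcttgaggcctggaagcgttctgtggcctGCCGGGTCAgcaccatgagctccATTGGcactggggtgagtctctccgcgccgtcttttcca
Psmb2: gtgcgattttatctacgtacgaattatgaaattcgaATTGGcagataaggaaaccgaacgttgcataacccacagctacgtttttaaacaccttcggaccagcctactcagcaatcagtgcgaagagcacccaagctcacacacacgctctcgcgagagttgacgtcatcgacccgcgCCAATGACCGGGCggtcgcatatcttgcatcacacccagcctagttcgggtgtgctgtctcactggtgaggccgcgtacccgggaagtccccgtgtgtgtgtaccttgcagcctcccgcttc
Of the 43 genes, 39 were in the promoter table, and 37 of these are subunits or cofactors. The antioxidant response element core occurred in 7 of the 37, 18.9%, against 12.1% of all 33469 promoters of the same length. The 7 were Psma3, Psmb2, Psmb5, Psmd1, Psmd3, Psmd9 and Psme4. CCAAT occurred in 18 of the 37, 48.6%, against 37.5%. Paired heat shock units, GAANNTTC and TTCNNGAA on both strands, occurred in 2 and 1 of the 37, against 8.59% and 8.77% of all promoters. Psmd5 held none of the 4 motifs in this window, and Psma3 held an antioxidant core and 3 CCAAT matches. A match is a string of letters and no measured site.

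Of the inducible subunits, which the rule leaves out, Psmb9 rose in BD/SEW against SEW, and no other difference of the 3 genes passed. Psmb8 was 9.40, 10.20 and 9.49 in sham, 10.40, 10.65 and 10.52 in BD, 9.76, 10.17 and 10.11 in SEW and 10.48, 10.96 and 10.37 in BD/SEW. Both groups with brain death were above sham and SEW without overlap. The difference was 0.83 in BD against sham (limma, adjusted p = 0.162), 0.59 in BD/SEW against SEW (limma, adjusted p = 0.138) and 0.91 in BD/SEW against sham (limma, adjusted p = 0.0642). Psmb9 was 9.92, 10.50 and 9.98 in sham, 10.40, 10.46 and 10.80 in BD, 10.19, 10.16 and 10.17 in SEW and 10.70, 10.97 and 10.73 in BD/SEW. It rose by 0.63 with an SE of 0.16 in BD/SEW against SEW (limma, adjusted p = 0.0368), a call kept in 6 of 12 fits that left out 1 array and lost without any SEW or BD/SEW array. In BD against sham Psmb9 differed by 0.42 and Psmb10 by 0.12, and in BD/SEW against sham by 0.67 and 0.39, none of them called. The value of Psmb10 in BD against sham was -0.01 without BD replicate 3. Psmb10 was 10.19, 9.85 and 9.97 in SEW and 10.32, 10.50 and 10.34 in BD/SEW, a difference of 0.38 (limma, adjusted p = 0.175). In SEW against sham, Psmb8, Psmb9 and Psmb10 differed by 0.32, 0.04 and 0.0033, with limma's adjusted p from 0.418 to 0.992. In BD/SEW against BD they differed by 0.08, 0.25 and 0.27, and in the interaction by -0.24, 0.21 and 0.27, none of them called.

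The list of immunoproteasome and class I antigen processing genes had 8 measured of 9. Irf1, an interferon-regulated transcription factor, was 11.06, 11.40 and 11.41 in sham, 12.57, 12.80 and 12.60 in BD, 10.46, 10.95 and 10.27 in SEW and 13.11, 13.06 and 12.82 in BD/SEW. It rose by 1.37 in BD (limma, adjusted p = 0.00539) and by 1.71 in BD/SEW against sham (limma, adjusted p = 0.00157). In SEW it fell by 0.73 against sham (limma, adjusted p = 0.0423), a call kept in 3 of 12 fits that left out 1 array. In BD/SEW against SEW, 3 of the 8 were called as rising and 0 as falling, while 7.08% of all probe sets were called. The 3 were Irf1 by 2.44 (limma, adjusted p = 2.33e-05), the peptide transporter gene Tap1 by 1.87 (limma, adjusted p = 0.00099) and Psmb9. The median over the 8 was 0.56 there, while it was -0.07 over the 57 constitutive probe sets. Means of 8 neutrophil genes were 8.88 to 10.32 in SEW and 10.82 to 11.21 in BD/SEW, and those of 4 platelet genes were 7.23 to 7.79 and 8.40 to 9.42. All 4 platelet genes rose there, by a median of 1.6 and without overlap, while 29.1% of all probe sets did not overlap. The part of neutrophil and platelet RNA in these differences was not tested.

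Of 22 measured proteasome cofactors, shuttles and regulators outside the rule, 3 were called, all in BD/SEW against SEW. In that comparison 7.08% of all probe sets were called. Nfe2l2, a transcription factor of the oxidative stress response, was 11.75, 12.18 and 11.78 in SEW and 12.52, 12.38 and 12.28 in BD/SEW and rose by 0.49 (limma, adjusted p = 0.0251). Ubqln4, a shuttle for ubiquitinated proteins, was 9.94, 9.79 and 9.92 in SEW and 9.39, 9.49 and 9.35 in BD/SEW and fell by 0.47 (limma, adjusted p = 0.0157). Ngly1, a deglycosylase that processes Nfe2l1, was 10.60, 10.79 and 10.72 in SEW and 10.37, 10.30 and 10.34 in BD/SEW and fell by 0.37 (limma, adjusted p = 0.0437). For each of these genes the groups did not overlap, which held for 29.1% of all probe sets. The calls were kept in 8, 9 and 4 of 12 fits that left out 1 array, respectively. Ngly1 lost its call also without arrays of groups outside the comparison. The median over the 22 was -0.12 in BD/SEW against SEW and 0.09 in SEW against sham. In the latter 16 were above 0 and 0 were called, against 2.71% of all probe sets. Of 15 measured ubiquitin genes and conjugating enzymes, 0 were called in limma in any of the 6 comparisons, with 0 to 3 at an unadjusted p under 0.05 and medians from -0.0033 to 0.06. The 17 heat shock and chaperone genes had 0 calls in limma as well, with 0 to 5 at an unadjusted p under 0.05. Over all probe sets, 0.0129% to 7.08% were called in the 6 comparisons.

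Single arrays moved many members at once. Sham replicate 3 lay more than 0.3 from the mean of the other sham arrays for 17 of 57 probe sets, the farthest being a probe set of Psme4 at -1.31. BD/SEW replicate 3 was below the rest of its group for 49 of 57, by a median of 0.15, and the median over all probe sets was -0.005. SEW replicate 1 was above the rest of its group for 44 of 57, by a median of 0.10, and the median over all probe sets was 0.03. BD/SEW replicates 1 and 2 were above for 42 and 47 of 57, by medians of 0.075 and 0.09. Each array is set against the other 2 of its group, so the low replicate 3 raises both values by construction. The median differences between groups in the 5 comparisons were -0.07 to 0.11. They are means of 3 arrays against 3, so they are not on the measure of the shift of a single array. Without BD/SEW replicate 3 the median went from 0.097 to 0.137 in BD/SEW against sham and from 0.063 to 0.118 in BD/SEW against BD. In BD/SEW against SEW it went from -0.07 to -0.025. Without SEW replicate 1 the median in SEW against sham went from 0.107 to 0.075.

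**Figure D5:**
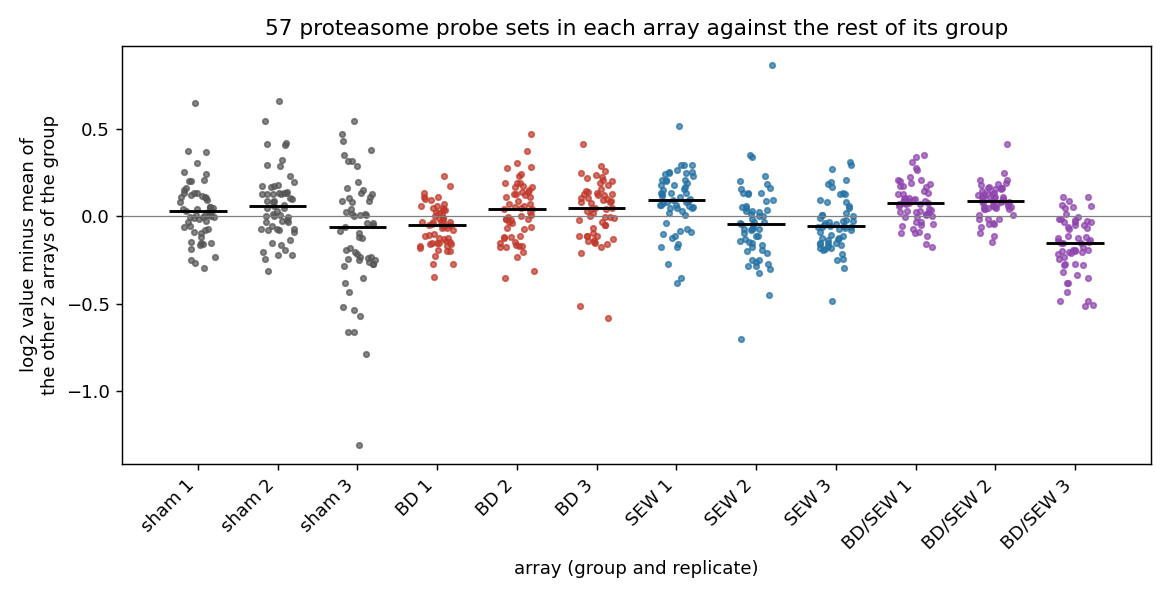
Log2 value of each of 57 proteasome probe sets in an array minus the mean of the other 2 arrays of its group, with the median as a black line. BD/SEW replicate 3 lies mostly below 0 and SEW replicate 1 mostly above, and the widest scatter is in sham replicate 3.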

How the data were processed

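RNA from lung was hybridised to Affymetrix arrays, 3 per group, from 6 ug of total RNA each, per the labels' protocols. The authors deposited a log2 value, rounded to 2 decimals, for each probe set. The submitters' processing notes list RMA, MAS5 and affy. Their versions and roles are not given in the sources used here. Array medians were 7.34 to 7.41, and values at the same rank differed by at most 0.22 between arrays. The number of arrays limits the precision.

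Symbols came from the platform annotation, in which 20826 probe sets have 1 symbol, 436 have several and 9780 have none; all 57 members matched a RefSeq gene. A mean per group was fitted over all 12 arrays with limma 3.58.1 in R 4.3.3, with variances moderated along a mean trend, two-sided tests and Benjamini-Hochberg adjustment over 31042 probe sets. A probe set was called at an adjusted p under 0.05. The fit was tested on simulated data.

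Named genes are called members, otherwise the 5 members with the smallest p in each comparison, the gene with the widest span of group means in each role, the inducible subunits, and up to 4 called genes of each list. The members, gene lists, roles, alternatives and this rule were chosen with earlier results of these data known, as were the 3 arrays left out together. Figures were drawn with matplotlib 3.10.9.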

Additional observations from a re-analysis of the deposited data

How the results depend on the processing

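The number of proteasome probe sets called was 0 under all alternatives run for BD against sham, BD/SEW against BD and the interaction. Over all probe sets the alternatives called 8 to 639, 2 to 10 and 23 to 625, in that order. For SEW against sham the count of 1 became 0 on the compared arrays only, without the 3 arrays that stood apart, with the cardiac covariate, at an adjusted p under 0.01 and with a limit of 1.5-fold. All probe sets called in these fits were 239, 960, 37, 118 and 643 of 31042, in that order, against 840 in the main fit. The count became 2 without a mean trend (1011 of all 31042 called) or with probe sets under the 25th percentile of means left out (1013 of 23281). It became 3 with array weights (1738 of 31042) or 1 probe set per gene (830 of 14217), with Psmd5, Psme4 and Psmg2 in both. Leaving out 1 array gave 0 to 2, and 313 to 1054 of all probe sets. For BD/SEW against SEW the count of 1 became 0 with the replicate block, on the compared arrays only, at the stricter threshold or fold limit, without the 3 arrays and with the cardiac or the heat shock covariate. All probe sets called in these fits were 892 to 2837 of 31042, against 2198 in the main fit. The count became 2 with array weights (4110 of all 31042 called) or without a mean trend (2420). With 1 array left out it was 0 to 1, and 1109 to 3202 of all probe sets. For BD/SEW against sham the count of 0 became 3 with array weights, while the calls over all 31042 probe sets went from 505 to 4129. The labels do not say that replicate numbers pair the samples. Deviations of same-numbered arrays had a correlation over 0.1 in 8 of 18 pairs (range -0.149 to 0.409), not in all, so the replicate block stayed an alternative. As a hint of pairing from the data, 8 of 12 arrays were closest to their own number, and sham replicates 2 and 3 had correlations of 0.132 to 0.409 with all their same-numbered arrays. In alternatives chosen after seeing the data, arrays were left out of the counts without overlap, which rise by construction with fewer arrays. Without the 3 arrays they moved from 7 to 32 for BD against sham (56.1%, against 49.1% of all probe sets), from 1 to 7 for BD/SEW against BD (12.3% against 19.8%) and from 10 to 24 for BD/SEW against sham (42.1% against 42.2%). Without 1 array they were 8 to 14 (all probe sets 21.8% to 32.8%), 2 to 21 (16.9% to 27.5%) and 10 to 27 (27.7% to 42.2%) in these comparisons, 29 to 34 (32% to 35.9%) for SEW against sham and 18 to 24 (35.3% to 41.6%) for BD/SEW against SEW. Some values that were not called changed sign. Psmb9 in SEW against sham was -0.03 without the 3 arrays and -0.023 with the cardiac covariate, and -0.067 to 0.22 when 1 array was left out. Psmb10 there was -0.0033 with centred arrays, -0.0058 with the cardiac covariate and -0.10 to 0.11 when 1 array was left out. Psmb10 in BD against sham ranged from -0.01 to 0.25 and Psmb8 in BD/SEW against BD from -0.10 to 0.20 when 1 array was left out, and the interaction of Psmb8 went from -0.24 to 0.0083 without the 3 arrays. The causes were not tested.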
